A study of Saccharomyces cerevisiae with 36 samples.

Results

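Quiescence is the resting state that budding yeast enters when it runs out of nutrients, and it is described here as the difference between starved and growing cells of one kind of strain. Starved H3-RITE cells (the group labelled wt-starved, 2 arrays) were compared with growing H3-RITE cells (the groups wt-rite, wt-rite-H3-HA and wt-rite-H3-T7, 2 arrays each and 6 in all). These are 8 of the 36 arrays of the series. RITE is a system in which Cre recombinase, held inactive until estradiol is added, exchanges the epitope tag on histone H3. All 4 strains carry the recombinase, CRE-EBD78 driven by the TDH3 promoter, but only the starved strain holds the cassette in which the tag can be exchanged. The series was made to study the exchange of histones outside S phase and the part played by the NuB4 complex, which holds the histone acetyltransferase Hat1 with Hat2 and Hif1. None of the 8 arrays holds a strain without a NuB4 gene.

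The starved strain was NKI2148, a MATa strain grown to saturation in rich medium (YPD) and held there for 3 days (G0), in which H3 carried an exchangeable HA tag. For the starved array cultures the methods refer to the turnover experiments, in which estradiol was added to saturated cultures to start the exchange, and they do not say separately whether the array cultures received it. Its other alleles were his3Δ200, leu2Δ0, lys2Δ0, met15Δ0 and ura3Δ0, with HIS3 at the site of CRE-EBD78 and LEU2 in place of the HHT1-HHF1 pair. The growing strains were NKI2176 (H3 with no tag), NKI2301 (H3-HA) and NKI2300 (H3-T7), harvested in early mid-log phase from synthetic complete medium with glucose. These strains were also MATa with his3Δ200, leu2Δ0, met15Δ0 and ura3Δ0, but they carried trp1Δ63 where the starved strain carried lys2Δ0, and MET15 took the place of HHT1-HHF1. All 4 strains lacked BAR1 and kept HHT2-HHF2 as their single source of H3 and H4. Every array set 1 strain against a common wild-type RNA that the labels call BY4742, and the labels give BY4742 for the strain channel as well. They name the molecule as nuclear RNA. The labels name one RNA isolation protocol for the starved strain and another for the growing strains and the reference. Starvation, any estradiol and tag exchange, medium, auxotrophic alleles and isolation protocol therefore cannot be told apart in this comparison. Cultures are not named in the labels. Every array counted as 1 sample, and the p-values measure the spread between arrays, which may be technical.

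All values are log2 ratios of strain over reference after normalization within each array, so that 1 means a 2-fold higher signal in the strain, and a change is the starved mean minus the growing mean on this scale. Each array was centred by its normalization, so a fall in the total amount of mRNA per cell would not be seen. In these bulk samples, fewer cells with a transcript and less transcript per cell cannot be told apart. Of 6388 yeast probes, 55 were set aside: 45 because the signal of the reference RNA itself differed by more than 1 on the log2 scale between the starved and growing arrays, 6 for auxotrophic marker genes, 3 for genes deleted in the RITE strains, and ATG33, whose spot differed between sets of arrays. The remaining 6333 probes are described.

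When glucose is used up, yeast first respires the ethanol it has made and then stops dividing. In this state it is known to take up and burn acetate, ethanol and fatty acids in mitochondria and peroxisomes, to store glycogen and trehalose, to raise stress proteins and autophagy, and to slow the production of ribosomes. The switch is set by the kinases PKA, TORC1, Sch9 and Pho85, which report nutrients and restrain the kinase Rim15, and by Snf1, the yeast AMP-activated kinase, which relieves glucose repression.

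Both groups differed from the alpha-type reference in the genes of mating type. STE2, the receptor of a cells for alpha-factor, lay at 4.88 and 4.80 on the 2 starved arrays and at 4.34, 4.71 and 5.17 (lowest, median and highest) on the 6 growing arrays. MF(ALPHA)2, which encodes alpha-factor, was at -5.27 and -4.58 and at -5.12, -4.64 and -4.31. STE2 was thus high and MF(ALPHA)2 low in both groups. The other marks of alpha cells were less clear. MF(ALPHA)1 and SAG1 were higher in the starved than in the growing strains, and SAG1 lay on either side of the reference on the starved arrays. STE3, set aside by the rule on the reference, averaged -1.58 on the starved and -3.25 on the growing arrays. MET17, the MET15 gene, was at -4.72 on average in the starved strain and at 0.12 in the growing strains. LYS2 was at -0.76 and 2.54, and TRP1 was at 1.37 and -2.94. Each of these markers was lower in the strain whose listed alleles lack it. The other markers were less clear. LEU2, carried by the starved strain only, was at 0.48 and -0.05. HIS3, named in the genotypes of both groups, was at 2.07 and 0.10, and URA3, absent from both, at -0.05 and -0.07. BAR1, disrupted in both groups, was above the reference at 2.97 and 2.81. With no strain here that keeps BAR1 in the a mating type, these ratios cannot show whether its transcript was reduced. Of the genes taken as marks of starved cells, HSP12, SSA3, SNZ1 and HXK1 were kept and were higher in the starved cells, and the others were set aside by the rule on the reference. Of the marks of growing cells, RPL3, NSR1, NOP1, CLN2, RNR1, HXT1 and PDC1 were lower, and the others had no probe under their name. The starved arrays had a foreground 8.34 and 11.8 times the background, above the 6.02 to 7.56 of the growing arrays, and 95% to 99.3% of probes were above background on each of the 8. Over the 6333 probes, which are no independent replicates and share the reference RNA, the starved arrays correlated with each other at 0.98, the growing arrays with each other at 0.77 to 0.96, and starved with growing arrays at 0.26 to 0.57.

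About 3 in 4 probes differed between starved and growing cells. Of the 6333 probes, 2412 were higher and 2341 lower in the starved wild type at an adjusted p under 0.05 (limma with Benjamini-Hochberg adjustment), where 75.2% of all 6388 probes were called, 38.4% of them higher and 36.8% lower. The median change was 0.01 and the median size of a change 0.51. Since most genes passed, a stricter rule was used to name genes: an adjusted p under 0.05, a change of at least 2-fold, and no overlap between the 2 starved and the 6 growing arrays. Genes past this rule therefore have separate groups by definition. Among all 6333 probes the groups did not overlap for 4788. By this rule 809 probes were higher and 700 lower, against a background of 13.2% and 11.0% of all probes. Counts in the gene lists below stand beside these shares, and beside 38.4% higher and 36.8% lower without the stricter rule. Changes of at least 4-fold were more often rises, with 238 higher and 98 lower. Scaling the 8 arrays to an equal spread of ratios left 96 probes higher and 183 lower by the stricter rule, so that 34.4% of them were higher against 53.6% without scaling. It also turned the direction of HSP12, HSP42, CTT1, HXK1, GLK1, SNZ1, TPS1, TSL1, NTH1, ADR1, ASG7, BCY1, RPB4, MRP8, DMC1, HTA1, ATG27, AGA1, SEM1 and DSE4 among the called genes described below, and it ended the calls of others, CAT2, HSP78, HSP104, GSC2, OM45, PIR3, GUT2, SAG1, HHF2 and HHO1 among them. The starved arrays had ratios with SDs of 1.08 and 1.13, and the growing arrays 0.32 to 0.54.

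**Figure D1:**
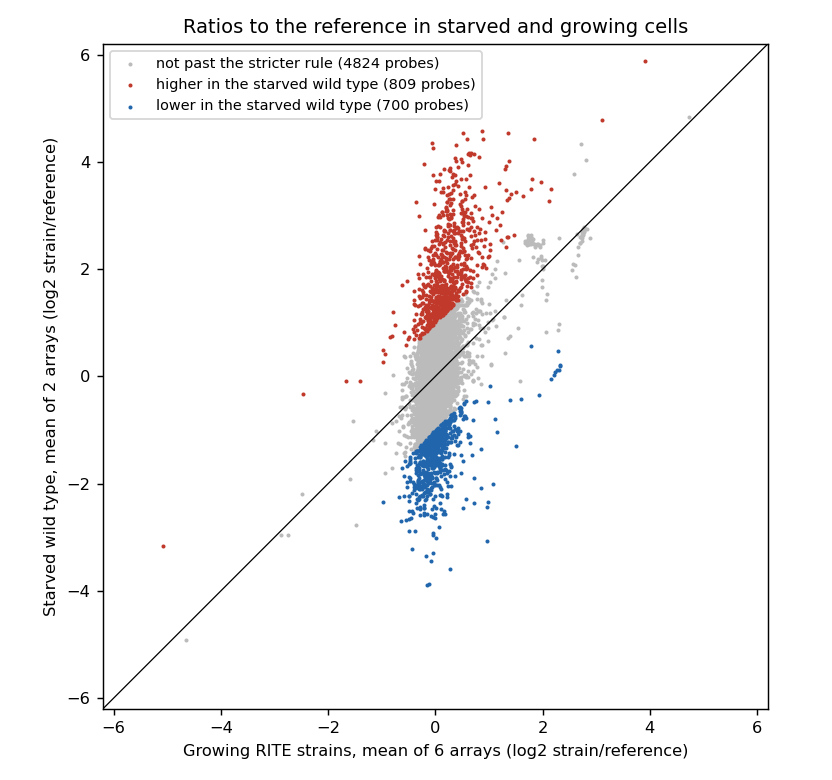
Mean log2 ratio to the reference of the 6 growing arrays (x axis) and of the 2 starved arrays (y axis) for 6333 probes, with the 809 probes higher and the 700 probes lower by the stricter rule in colour and the line of equal ratios in black. The growing strains lie close to the reference for most probes, while the starved strain spreads widely along the y axis.

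The other arrays of the series separated the same probes. The series holds 14 arrays of 7 other starved RITE strains, with NuB4 genes deleted or the H4 tail mutated, and 14 arrays of growing BY4742 deletion strains. For 791 of the 809 higher probes every one of the other starved arrays lay above every BY4742 array (97.8%, compared with 33.2% of all 6333 probes), and for 682 of the 700 lower probes every one lay below (97.4%, compared with 32.0%). These starved strains share the medium and the isolation protocol of the starved wild type, and the BY4742 arrays are of the mating type and strain of the reference. No test was made on these arrays.

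The 12 genes with the largest rises included several for the use of acetate and fatty acids. ADY2, the acetate transporter, was at 4.18 and 4.52 on the starved arrays and at -0.16, -0.04 and 0.05 (lowest, median and highest) on the growing arrays, a change of 4.41 (SE 0.07, 21.2-fold, adjusted p = 7.70e-08). CIT2, the citrate synthase of the glyoxylate cycle, was at 4.16 and 4.34 and at -0.40, -0.01 and 0.33, a change of 4.30 (SE 0.19, adjusted p = 1.79e-06). IDP2, which makes NADPH in the cytosol from isocitrate, went from 0.25, 0.57 and 0.71 to 4.60 and 4.47. In each of these 3 genes the starved arrays lay far above all growing arrays, and the stricter rule already required separate groups. CAT2, which moves acetyl groups onto carnitine for entry into mitochondria, changed by 3.71 (13.1-fold), and SFC1, which exchanges succinate for fumarate across the mitochondrial membrane, by 3.70. CTA1, the peroxisomal catalase, was at 3.997 and 4.04 against 0.02, 0.51 and 0.71. The remaining members of the 12 were COX7 of cytochrome oxidase (3.71), the metallothionein CRS5 (3.70), RGI1 (3.93), UIP4 (3.84), RTS3 (3.63) and YER053C-A (4.18). CAT2 and RGI1 were close to the limit set on the reference channel, with differences of 0.98 and 0.96 in that channel.

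**Figure D2:**
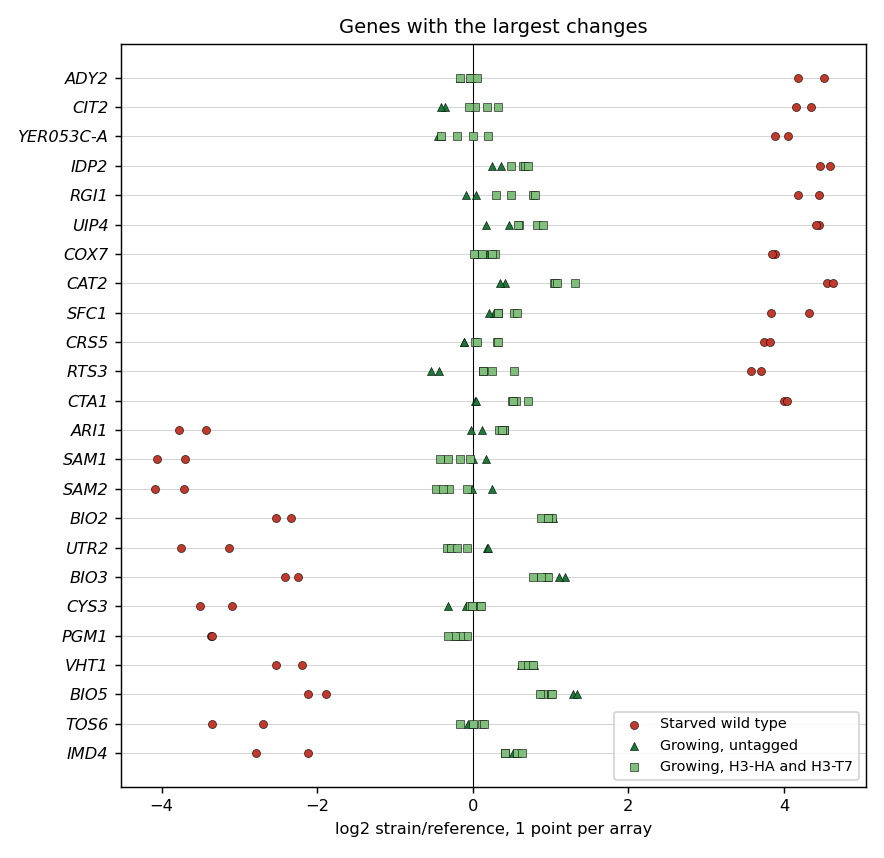
Log2 ratio to the reference (x axis) on each of the 8 arrays for the 12 genes with the largest rise and the 12 with the largest fall by the stricter rule (y axis), with starved arrays as circles, the untagged growing strain as triangles and the tagged growing strains as squares. No starved point of the upper 12 genes lies below 3.58 and no growing point of these genes above 1.31.

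Genes of the glyoxylate cycle, gluconeogenesis and acetate use rose together. All 17 kept members of this list were higher, 15 by the stricter rule, with a median change of 2.60 beside 0.01 over all probes. The median of the list was 3.36 and 3.45 on the starved arrays and 0.17 to 0.48 on the growing arrays. Besides ADY2, IDP2, CAT2 and SFC1 it included ACS1, the acetyl-CoA synthetase of respiring cells, at 3.39 and 3.62 against -0.16, 0.03 and 0.11, and CAT8, an activator of gluconeogenic genes, at 3.36 and 3.45 against 0.14, 0.25 and 0.38. ADR1 and SIP4, activators of the same programme, changed by 1.53 and 2.38. ACS1, CAT8, ADR1 and SIP4 were chosen after their values were seen.

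Oxidation of fatty acids showed the same direction. Of 19 members of this list, 17 were higher (12 by the stricter rule, median change 1.76), the adenine nucleotide carrier ANT1 was lower at -0.34 (but at 0.00 in the authors' ratios, and not called without starved replicate b), and the transcription factor gene PIP2 did not pass. POX1, the oxidase of the first step of beta-oxidation, was at 3.52 and 3.09 on the starved and at -0.03, 0.32 and 0.55 on the growing arrays, a change of 3.05 (SE 0.18, adjusted p = 5.77e-06). PXA1, a subunit of the peroxisomal importer of long-chain fatty acids, was at 3.37 and 3.16 against 0.32, 0.46 and 0.70. In neither gene did the groups overlap, which the stricter rule requires.

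The TCA cycle and the respiratory chain rose nearly as a whole. Of 16 TCA cycle genes 15 were higher, 13 of them by the stricter rule (median change 2.21), and LSC1 of succinyl-CoA ligase did not pass (-0.23, adjusted p = 0.241). SDH2, the iron-sulfur subunit of succinate dehydrogenase, was at 3.98 and 4.01 and at 0.27, 0.47 and 0.73, a change of 3.51 (11.4-fold, adjusted p = 6.86e-07). CIT1, the mitochondrial citrate synthase, was at 4.10 and 4.19 and at 0.17, 0.83 and 1.14, and the growing arrays of this gene spread more widely than those of SDH2. CIT3 and MDH1 changed by 3.36 and 2.64.

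Of 36 nuclear genes for respiratory complexes and ATP synthase, 35 were higher and 33 passed the stricter rule, with a median change of 2.10. The one exception was COX5B, the form of cytochrome oxidase subunit V used at low oxygen, at 0.19 (adjusted p = 0.464), while its aerobic counterpart COX5A was at 1.85. This pair was chosen after its values were seen. COX7 was at 3.88 and 3.85 on the starved and at 0.02, 0.15 and 0.29 on the growing arrays. ATP15, the epsilon subunit of ATP synthase, was at 3.72 and 3.58 against -0.12, 0.06 and 0.24, and QCR7 of complex III at 3.95 and 3.86 against 0.22, 0.42 and 0.58. NDE2, an external NADH dehydrogenase, changed by 3.33. The list ran from 0.19 to 3.71.

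Genes for the mitochondrial ribosome were divided. Of 66 genes listed for the mitochondrial ribosome 33 were higher, 13 lower and 20 were not called. Only MRPL35, MRP8 and MRPL28 passed the stricter rule (1.40, 1.21 and 1.20). Whether the protein of MRP8 is part of this ribosome was not checked. The median change was 0.16. MRPL3 had the largest fall, -0.89 (adjusted p = 3.20e-06). The share higher by the stricter rule, 4.55%, lay below the 13.2% of all probes. Without that rule 38.4% of all probes were higher and 36.8% lower.

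**Figure D3:**
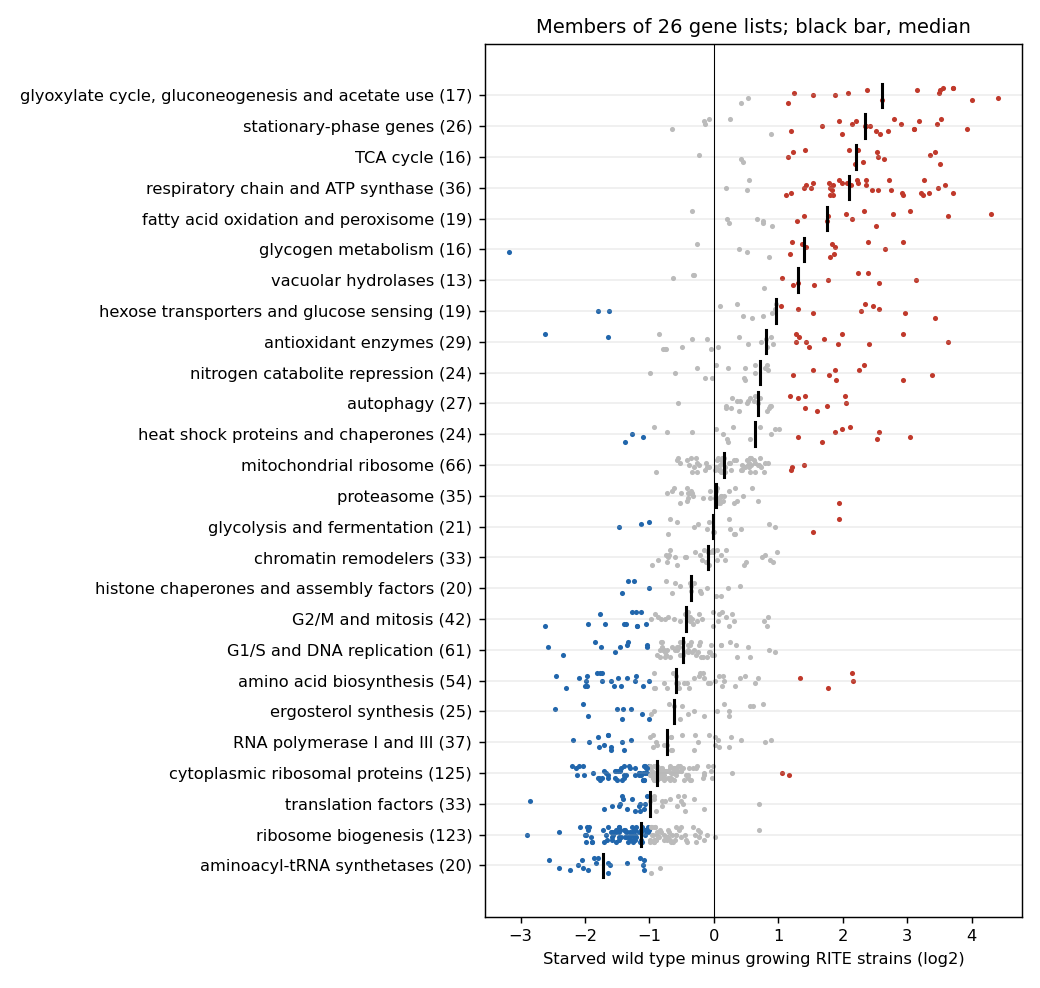
Change between the starved wild type and the growing RITE strains (x axis, log2) for the members of 26 gene lists (y axis, number of kept members in brackets), with members past the stricter rule in red when higher and in blue when lower, the others in grey and the list median as a black bar. The medians run from 2.60 for the glyoxylate cycle to -1.72 for the aminoacyl-tRNA synthetases, with mitochondrial ribosome, proteasome and glycolysis near 0.

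Glycolytic genes were divided too. Of 21 genes 6 were higher, 6 lower and 9 were not called, with a median change of -0.01. Both shares lay below the 38.4% higher and 36.8% lower of all probes. The starved arrays themselves did not agree on this list, with medians of -0.32 on replicate a and 0.35 on replicate b, on either side of the growing arrays. HXK1, a hexokinase repressed by glucose, was at 3.24 and 3.42 against 0.24, 1.56 and 2.122, a change of 1.95 (SE 0.51, adjusted p = 0.0101, not called without either starved array), and glucokinase, GLK1, was at 2.40 and 2.45 against 0.18, 1.01 and 1.56. The growing arrays of both genes ranged over more than 1 unit. PDC1, the main pyruvate decarboxylase of fermentation, was at -1.70 and -0.37 against -0.03, 0.07 and 0.27, a change of -1.14 (adjusted p = 0.00307), and PDC5 at -1.97 and -0.56 against 0.08, 0.20 and 0.38. Replicate a lay more than 1 unit below replicate b in both PDC genes, so the size of their fall rests on 2 unlike arrays. Probes of related genes can share signal, so the falls of PDC1 and PDC5 cannot be assigned to a single gene.

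Most genes for hexose transport and glucose sensing rose. Of 19 kept members 16 were higher, 9 by the stricter rule, and 2 were lower (median change 0.96). MTH1, a repressor of transporter genes, was at 3.51 and 4.03 on the starved and 0.10, 0.32 and 0.60 on the growing arrays, a change of 3.43 (10.8-fold). SNF3, the sensor of low glucose, was at 2.40 and 2.37 against -0.23, -0.19 and -0.14, whereas RGT2, the sensor of high glucose, did not pass (0.09, adjusted p = 0.248). HXT1, the transporter used at high glucose, was at -1.88 and -2.03 against -0.46, -0.31 and -0.22 and fell by 1.63, and STD1, the paralog of MTH1, fell by 1.80. GPA2, the G protein that signals glucose to adenylate cyclase, rose by 2.47, and STL1, a glycerol importer, by 2.97. RGT2, HXT1 and STD1 were named after their values were seen. Hexose transporter genes are alike in sequence, and a probe can take up transcripts of a close relative, so single members are uncertain.

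Glycogen genes were mostly higher. Of 16 glycogen genes 13 were higher, 11 by the stricter rule, with a median change of 1.39. GAC1, which targets a phosphatase to glycogen synthase, was at 3.19 and 2.83 against -0.08, 0.06 and 0.25, and the branching enzyme GLC3 at 3.13 and 3.58 against 0.10, 0.76 and 1.26. PIG2, a relative of GAC1, rose by 2.40. PGM1, the minor phosphoglucomutase, went the other way, at -3.37 and -3.35 against -0.32, -0.18 and -0.07 (adjusted p = 1.48e-07), while the major form PGM2 rose by 1.86. PGM2 was chosen after its value was seen. Both enzymes turn glucose-6-phosphate into glucose-1-phosphate, the entry to glycogen.

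Trehalose is made by TPS1, TPS2, TPS3 and TSL1 and broken down by NTH1, NTH2 and ATH1. The largest rise in this list of 7 was in ATH1, the acid trehalase, at 3.37 and 3.58 against -0.07, 0.33 and 0.73 (3.14, adjusted p = 1.08e-05), followed by NTH2 at 1.496. TPS1 was at 1.31 and 1.57 against 0.19, 0.60 and 1.13 and TSL1 at 1.37 and 1.31 against -0.10, 0.54 and 1.05, with changes of 0.82 and 0.76 and adjusted p-values of 0.0163 and 0.0490, and neither was called without either starved array. For TPS2 the groups overlapped and the test did not pass (0.51, adjusted p = 0.118), and the regulatory subunit TPS3 fell by 1.11. NTH1, the neutral trehalase, rose by 0.78 and was not called without either starved array. The list median of 0.78 became -0.20 when the arrays were scaled to an equal spread. On the tagged growing arrays these genes were themselves above the reference, with up to 1.13 for TPS1 and 1.05 for TSL1.

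Genes for heat shock proteins and chaperones went both ways. Of 24 kept members 12 were higher, 6 lower and 6 not called (median change 0.63, and -0.17 when the arrays were scaled to an equal spread). Over all probes 38.4% were higher and 36.8% lower. The disaggregases HSP78 of mitochondria and HSP104 of the cytosol were at 3.33 and 3.17 and at 3.21 and 3.03 on the starved arrays, against -0.66, 0.22 and 0.93 and -0.32, 0.58 and 1.19 on the growing arrays. HSP42, a small heat shock protein, was at 3.78 and 3.96 against 0.30, 1.30 and 2.23, a change of 2.56 (SE 0.48, adjusted p = 0.00195). SSE2 rose by 2.11, while SSE1, its relative in growing cells, fell by 1.38, and SSB1 and SSB2, chaperones bound to ribosomes, fell by 1.27 and 1.10. SSA3 rose by 1.99, whereas SSA1 fell by 0.93. SSE1, SSB1, SSB2 and SSA1 were chosen after their values were seen, and members of a pair can share signal. HSP12, a membrane protein of stressed cells, was at 4.38 and 5.19 against 2.23, 3.27 and 3.91, and its growing arrays were already far above the reference (change 1.68, adjusted p = 0.0144, not called without either starved array and at -2.24 when the arrays were scaled to an equal spread).

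Antioxidant genes rose in part. Of 29 genes 18 were higher (11 by the stricter rule), 7 lower and 4 not called. GPX1, a glutathione peroxidase, was at 3.12 and 3.35 against 0.05, 0.30 and 0.55 (2.94, adjusted p = 1.82e-06), and CTT1, the cytosolic catalase, at 3.24 and 3.97 against 0.32, 1.33 and 1.83. AHP1, a thioredoxin peroxidase, was at -2.48 and -1.31 against 0.29, 0.80 and 0.97 and fell by 2.62 (adjusted p = 0.000130). The 2 starved arrays of AHP1 differed by more than 1 unit, both below every growing array, which the stricter rule requires.

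Genes known from stationary phase were mostly higher, with 21 of 26 higher, 20 of them by the stricter rule, and a median change of 2.35. STF1, an inhibitor of the reverse action of ATP synthase, was at 4.23 and 4.09 against 0.01, 0.81 and 0.95, and GSC2, the glucan synthase of stress and sporulation, at 4.03 and 4.21 against -0.17, 0.78 and 1.62. OM45 of the mitochondrial outer membrane was at 4.39 and 4.68 against 0.54, 1.56 and 1.82. Among the growing arrays, all 3 genes were lowest in the untagged strain. SNZ1, of vitamin B6 synthesis, was at 3.09 and 3.79 against 0.36, 1.86 and 2.38, with a wide spread among growing arrays (change 1.94, SE 0.55, adjusted p = 0.0142, not called without either starved array). YGP1, a secreted glycoprotein of this list, fell by 0.64.

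Autophagy genes rose almost without exception, by modest amounts. Of 27 genes 26 were higher and ATG27 lower (-0.55), with 8 past the stricter rule and a median change of 0.68. ATG8, the ubiquitin-like protein of the autophagosome membrane, was at 2.04 and 2.24 on the starved and 0.02, 0.06 and 0.27 on the growing arrays (2.05, SE 0.07, 4.13-fold, adjusted p = 7.19e-07). ATG1, the kinase that starts autophagy, was at 1.89 and 1.82 against -0.28, -0.17 and -0.09, and ATG9, which brings membrane, at 1.65 and 1.997 against -0.11, 0.09 and 0.21. ATG32, the mitochondrial receptor of mitophagy, rose by 1.61. The growing arrays of these 4 genes lay between -0.28 and 0.27, far below the starved arrays.

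Vacuolar hydrolases rose too, with 10 of 13 higher and a median change of 1.30. CPS1, a carboxypeptidase, was at 2.62 and 2.47 against -0.36, -0.05 and 0.45, and AMS1, the vacuolar mannosidase, at 3.05 and 3.04 against 0.01, 0.88 and 1.01. PBI2, an inhibitor of vacuolar protease B, rose by 2.24 together with that protease, PRB1 (1.77). PEP4, the protease that activates the others, did not pass (-0.33, adjusted p = 0.359), and neither did APE1, while APE3 fell by 0.63 and was not called without either starved array. PRB1, PEP4, APE1 and APE3 were chosen after their values were seen.

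Proteasome genes were divided. Of 35 genes 8 were higher, 13 lower and 14 not called, and the median was 0.03. The share lower was close to the 36.8% of all probes, and the share higher was below their 38.4%. RPN4, the transcription factor of proteasome genes, was the only member past the stricter rule, at 2.11 and 2.19 against 0.02, 0.18 and 0.39 (1.95, adjusted p = 4.85e-06). Of the subunits SEM1 rose by 0.68, and RPT5 and PRE8 were lower at -0.73 and -0.64.

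Genes under nitrogen catabolite repression, which are silent while a good nitrogen source lasts, were mostly higher. Of 24 members 18 were higher (9 by the stricter rule, median change 0.72), and the ammonium transporter MEP3 was lower (-0.997). PUT1, the proline oxidase, was at 3.74 and 3.75 against 0.14, 0.32 and 0.73, a change of 3.39 (10.5-fold, adjusted p = 1.85e-06). GDH2, which releases ammonium from glutamate, was at 3.41 and 3.38 against 0.08, 0.60 and 0.72, and AGP1, an amino acid permease, at 2.54 and 2.21 against -0.09, 0.06 and 0.13. DAL80, a repressor of this regulon, rose by 2.26.

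Genes of the protein synthesis machinery were mostly lower. Of 125 cytoplasmic ribosomal protein genes 111 were lower, 48 of them by the stricter rule, 3 higher and 11 not called, with a median change of -0.89. The list median was -1.27 and -0.83 on the starved and -0.24 to -0.09 on the growing arrays. The largest falls were in RPS22B, at -2.92 and -2.37 against -0.66, -0.44 and -0.24 (4.59-fold, adjusted p = 1.80e-05), in RPL16A, at -2.78 and -2.57 against -0.87, -0.53 and -0.35, and in RPS9A and RPS6A (-2.124 and -2.09). RPL41A and RPL41B, which encode a protein of very few amino acids, rose by 1.06 and 1.17, but RPL41A was at -0.46 with print-tip loess and at -0.61 in the authors' ratios, and RPL41B was no longer called with print-tip loess (0.32) or with median centring. RPS30B rose by 0.28, was not called without either starved array and was at -0.58 with median centring in place of loess. These 3 were named after their values were seen. Most ribosomal proteins come from 2 nearly identical genes, so that the share of each member of a pair is uncertain.

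Ribosome biogenesis genes were lower as well. Of 123 genes 117 were lower (72 by the stricter rule, median change -1.13), 5 were not called and RRP8 was higher (0.70). NOP1, the methyltransferase fibrillarin of box C/D particles, was at -3.32 and -2.58 on the starved and -0.15, -0.09 and 0.20 on the growing arrays, a change of -2.90 (7.48-fold, adjusted p = 1.85e-06). FPR4, a nucleolar prolyl isomerase, was at -2.33 and -2.06 against 0.04, 0.21 and 0.39, and GAR1, of box H/ACA particles, at -2.32 and -1.84 against -0.38, -0.10 and 0.13. RRP1, needed for the large subunit, changed by -2.08. The starved arrays of all 4 lay below every growing array, which the stricter rule requires.

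Translation factors and tRNA charging enzymes went the same way. Of 33 translation factor genes 30 were lower (median change -0.999), and SUI1, which selects the start codon, was higher at 0.71 but at -0.0078 with median centring. TEF4, the gamma subunit of elongation factor EF-1, was at -3.16 and -2.67 against -0.17, -0.07 and 0.10 (7.27-fold), and YEF3, the fungal elongation factor EF-3, at -1.80 and -1.27 against -0.11, 0.08 and 0.13. The initiation factors TIF3 and SUI2 changed by -1.71 and -1.48. All 20 cytoplasmic aminoacyl-tRNA synthetase genes were lower, 18 by the stricter rule, with a median change of -1.72, the lowest median of the 44 lists. TYS1, for tyrosine, was at -2.67 and -2.48 against -0.06, -0.01 and 0.03 (5.90-fold, adjusted p = 1.48e-07), and MES1, for methionine, at -2.61 and -2.28 against -0.38, -0.22 and -0.02, with FRS1, for phenylalanine, at a change of -2.40 and WRS1, for tryptophan, at -2.117. The range within this list was narrow, from -2.56 to -0.84.

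RNA polymerases I and III, which make ribosomal RNA and tRNA, were lower in 27 of 37 genes for their subunits and factors (median change -0.73). RPA43 and RPA49, subunits of polymerase I, were at -2.32 and -1.87 and at -2.41 and -1.53 on the starved arrays, against -0.08, 0.11 and 0.25 and -0.20, -0.06 and 0.18. RPA34, of polymerase I, and RPC40, shared by both, changed by -1.79 and -1.78. MAF1, the repressor of polymerase III, was among 5 genes that were higher, with BRF1, TFC1, TFC3 and TFC6 (0.89 for MAF1), and TFC1 was at -0.011 in the authors' ratios. These were named after their values were seen. Of the 10 subunits of polymerase II 8 were lower, from -0.36 (RPB11) to -1.55 (RPB8, shared by the 3 enzymes), with the catalytic subunits RPO21 and RPB2 at -0.69 and -0.50, RPB3 at -0.73, RPB5 at -0.63, RPB9 at -1.11 and RPO26 at -1.06. RPB7 did not pass (0.08, adjusted p = 0.437), and RPB4 was higher at 1.17 and 0.88 against 0.03, 0.37 and 0.55 (0.69, adjusted p = 0.000241). Rpb4 and Rpb7 form a stalk that can leave the enzyme.

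Among the genes of biosynthesis were several of the lowest of all. SAM1 and SAM2, which make S-adenosylmethionine and are nearly identical, were low on both starved arrays. SAM1 was at -4.06 and -3.69 against -0.43, -0.10 and 0.17, and SAM2 at -4.09 and -3.71 against -0.47, -0.19 and 0.25. Their changes of -3.75 and -3.73 (adjusted p = 1.85e-06 and 3.65e-06) cannot be assigned to one gene. CYS3, which makes cysteine from cystathionine, was at -3.50 and -3.10 against -0.32, -0.02 and 0.11, and SAM4, which makes methionine from homocysteine and S-adenosylmethionine, changed by -2.28. In the whole list of sulfate assimilation and methionine, 17 of 28 genes were lower and 9 higher (median change -0.48), smaller than the falls of these genes. The starved strain is met15Δ0, and the growing strains carry MET15.

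Genes for biotin were lowest in the starved cells and higher than the reference in the growing cells. BIO2, the biotin synthase, was at -2.34 and -2.53 on the starved and 0.88, 0.97 and 1.03 on the growing arrays (-3.40, SE 0.05, adjusted p = 7.70e-08). BIO3, BIO4 and BIO5 changed by -3.31, -2.80 and -3.07, and VHT1, the biotin importer, was at -2.53 and -2.20 against 0.62, 0.73 and 0.79. On the growing BY4742 arrays BIO2 was at 0.37 to 0.66 and on the other starved arrays at -2.92 to -2.10. The starved and growing cultures had different media, and the part of biotin supply in these values was not tested.

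Of 54 amino acid biosynthesis genes 36 were lower and 9 higher (median change -0.59). ARO7, the chorismate mutase, was at -2.44 and -2.29 against -0.01, 0.08 and 0.18, a change of -2.45 (adjusted p = 3.17e-07). BAT1 and BAT2, the mitochondrial and cytosolic transaminases of branched-chain amino acids, went opposite ways, BAT1 to -2.31 and -2.120 from -0.12, 0.10 and 0.22 and BAT2 to 2.39 and 1.82 from -0.39, -0.01 and 0.19. ARO9, which starts the breakdown of aromatic amino acids, rose by 2.16. GCN4, the activator of amino acid biosynthesis genes, was higher at 2.10 and 2.17 against 0.03, 0.11 and 0.25, while most of the list was lower.

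In the list of purine, pyrimidine and one-carbon synthesis, 16 of 30 were lower and 7 higher (median change -0.68), with IMD4 and IMD2, IMP dehydrogenases of guanine nucleotide synthesis and close relatives, at -2.97 and -2.86 and IMD3 at -1.76, and GUA1, of the next step, at -1.80. The ergosterol list had 17 of 25 lower (median change -0.62), with ERG6 at -2.30 and -2.18 against 0.18, 0.23 and 0.25 and ERG4 at -1.97 and -2.08 against -0.12, -0.01 and 0.12. ERG13 and ERG25 changed by -1.95 and -1.51, whereas UPC2 and ECM22, the activators of this pathway, were higher at 0.24 and 0.77, UPC2 not without either starved array. UPC2 and ECM22 were chosen after their values were seen. ARI1, an NADPH-dependent aldehyde reductase, had the largest fall of any gene with a symbol that passed the stricter rule, at -3.78 and -3.42 against -0.02, 0.36 and 0.40 (14.6-fold, adjusted p = 9.50e-07).

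Cell cycle genes were mostly lower. Of 61 genes of G1/S and DNA replication 45 were lower (10 by the stricter rule, median change -0.47), and of 42 genes of G2/M and mitosis 30 (12, median change -0.43). RNR1, the large subunit of ribonucleotide reductase, was at -2.68 and -2.26 against -0.07, 0.09 and 0.27 (5.97-fold, adjusted p = 2.08e-06), and the cohesin subunit MCD1 at -2.14 and -1.96 against 0.22, 0.29 and 0.38. CLB2, the main mitotic cyclin, was at -2.72 and -2.57 against -0.17, -0.08 and 0.20 (6.17-fold, adjusted p = 1.46e-06), and CLB1, its relative, changed by -1.96. FKH1, a forkhead transcription factor, and HST3, a histone deacetylase of the G2 phase, changed by -1.69 and -1.76. PCL1, a G1 cyclin of Pho85, fell by 1.75. CLN2, a G1 cyclin, fell by less, 1.03, and CLB6, an S-phase cyclin, by 1.84. SIC1, the inhibitor of S-phase cyclins, did not pass (-0.04, adjusted p = 0.611), which was noted after its value was seen.

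The cell wall was changed in both directions, with 12 of 24 mannoprotein and wall genes lower and 5 higher. UTR2, a transglycosidase that links chitin to glucan, was at -3.76 and -3.14 against -0.33, -0.14 and 0.20, SRL1, a mannoprotein, at -2.59 and -2.54 against -0.08, 0.13 and 0.35, and TOS6 at -3.35 and -2.69 against -0.16, 0.01 and 0.14. PIR3 and SPI1, wall proteins of stationary phase, were at 3.90 and 4.40 and at 3.17 and 2.96 on the starved arrays, against -0.17, 0.57 and 1.87 and 0.18, 0.58 and 0.88. PIR1, of the same family as PIR3, fell by 1.19, and probes of related genes can share signal. Of 15 daughter-specific genes, which serve the separation of daughter from mother, 8 were lower (median change -0.61), among them SUN4, DSE4 and DSE2 (-1.58, -1.08 and -0.86), and ASH1, the repressor of HO in daughters, was higher (0.67).

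The histone genes that were kept, the subject of the series, changed by less than 2-fold, and the calls of most of them depended on the normalization. HHF2 and HHO1 changed by more than the median size of 0.51 over all probes. HHT2, the single H3 gene, was at 0.11 and 0.15 on the starved and -0.32, -0.09 and 0.26 on the growing arrays and did not pass (0.17, adjusted p = 0.265), whereas HHF2, which alone encodes H4 in these strains, was at -0.98 and -0.84 against -0.33, -0.11 and 0.08, a change of -0.81 (SE 0.11, adjusted p = 0.000278). HHT2 was called at 0.39 with print-tip loess, at 0.42 in the authors' ratios and at 0.28 without the untagged growing strain, and HHF2 was not called in the authors' ratios (-0.21) or with the arrays scaled to an equal spread (-0.23). HHT1 and HHT2 are nearly identical, as are the H2A and the H2B pairs, so that a probe may take up both copies where both are present, as in the reference. The probe of HHF1, the H4 gene deleted in the RITE strains, was set aside. It averaged -1.82 on the starved and -0.41 on the growing arrays. The probe of HHT1, the deleted H3 gene, was set aside too and averaged -1.88 on the starved and -1.64 on the growing arrays. Whether the H3 or the H4 probes share signal was not tested. HTA1 rose by 0.44 and HTA2 fell by 0.50, both genes for H2A, though HTA1 was at -0.46 with median centring and HTA2 at 0.05 in the authors' ratios, and neither H2B gene passed (HTB1 0.23, adjusted p = 0.120, and HTB2 -0.17, adjusted p = 0.139). HTB1 was called with print-tip loess (0.52), in the authors' ratios (0.37) and, downwards, with median centring (-0.61), and HTB2 with median centring (-0.97) and, upwards, in the authors' ratios (0.44). The linker histone HHO1 fell by 0.99, and CSE4 and HTZ1 did not pass. Of the loci at which the series followed histone exchange, ADH1, ADH2 and HHT2 were measured and differed among themselves, and IMD1 had no probe under its name. ADH2, the alcohol dehydrogenase that uses ethanol, was at 1.89 and 2.25 against -0.23, 0.07 and 0.14 (2.07, 4.21-fold, adjusted p = 8.43e-06). ADH1, the main enzyme of fermentation, was at -1.11 and 0.06 against -0.26, 0.11 and 0.60 with overlapping groups (-0.69, adjusted p = 0.0270, and 0.30 in the authors' ratios). Probes of related genes such as ADH1 and ADH2 can share signal. Of the genes listed with these loci the polarity gene SPA2 fell by 0.76, and BUD3 did not pass (0.06, adjusted p = 0.502).

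HAT1, the catalytic subunit of NuB4, was at -0.97 and -0.76 on the starved and 0.08, 0.14 and 0.21 on the growing arrays, a change of -1.01 (SE 0.07, adjusted p = 8.41e-06). HAT2, at -0.36 and -0.25 against -0.24, -0.14 and 0.12, did not pass (-0.22, adjusted p = 0.128), and HIF1 fell by 0.19 (adjusted p = 0.0267) with groups that overlapped. Of 20 histone chaperones and assembly factors 14 were lower, among them VPS75 (-1.42), ASF1 at -1.09 and -0.45 against 0.47, 0.57 and 0.71, and HIR2 (-1.24). The acetyltransferases and deacetylases had 11 higher and 7 lower of 23, with the deacetylase HOS2 at 1.34 and 1.12 against -0.21, -0.16 and -0.04, EAF3 at 1.05, HPA3 at 0.94 and ELP3, of the Elongator complex, at -0.99. No chromatin remodeler of 33 passed the stricter rule, 8 were higher, 13 lower, and the largest changes were those of SNF11 (0.98), RVB2 (-0.96), IES1 (0.92) and VPS72 (0.88). For these lists the shares of all probes were 38.4% higher and 36.8% lower, and 13.2% and 11.0% by the stricter rule.

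Among nutrient regulators the largest change was in HAP4, the activating subunit of the complex that drives respiratory genes. HAP4 was at 3.95 and 3.83 on the starved and 0.00, 0.28 and 0.52 on the growing arrays (3.61, 12.2-fold, adjusted p = 1.24e-06), while HAP2 and HAP5, its partners, did not pass (0.07 and 0.18, adjusted p = 0.368 and 0.0873), and HAP3 rose by 0.74. The list of 43 regulators had 19 higher, 15 lower and 9 not called. These shares were close to the 38.4% higher and 36.8% lower of all probes. MIG2, a repressor made in high glucose, was at -2.41 and -2.62 against -0.03, 0.18 and 0.27, a change of -2.68 (6.39-fold, adjusted p = 2.19e-07), MIG1 fell by 0.65, and MIG3 did not pass (0.05, adjusted p = 0.597).

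The parts of the Ras and PKA pathway differed in direction. RAS1 and RAS2 were lower, RAS2 at -0.89 and -0.97 against 0.09, 0.16 and 0.17 (-1.07, adjusted p = 1.07e-06), and IRA2, which turns Ras off, was higher at 1.89 and 2.05 against 0.04, 0.18 and 0.35 (1.79, adjusted p = 1.96e-06), as was IRA1 (0.92). CYR1, the adenylate cyclase, rose by 0.33 (adjusted p = 0.0346). It was not called with print-tip loess, with the arrays scaled to an equal spread or without the untagged growing strain. PDE1, which breaks down cAMP, rose by 1.57, and PDE2, which does the same, fell by 0.29 (adjusted p = 0.0290). PDE2 was not called in the authors' ratios, with print-tip loess, with median centring or with the arrays scaled to an equal spread. Of the PKA subunits TPK2 rose (1.36 and 1.40 against -0.10, 0.08 and 0.31), TPK3 fell by 0.39, and the regulatory subunit BCY1 rose by 0.60 (not called without either starved array). CDC25, the exchange factor of Ras, did not pass (0.02, adjusted p = 0.801).

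In the Snf1 complex SIP2, one of 3 alternative beta subunits, was at 2.28 and 2.05 against -0.21, -0.17 and 0.05 (2.28, 4.87-fold, adjusted p = 1.28e-06), the beta subunit SIP1 rose by 0.44, and the beta subunit GAL83, the kinase SNF1 and the gamma subunit SNF4 fell by 0.73, 0.64 and 0.85. Of the TOR kinases TOR1 fell by 0.46 and TOR2 rose by 0.55, and SCH9 and KOG1, a subunit of TORC1, fell by 0.56 and 0.34. PHO85 did not pass (0.08, adjusted p = 0.235). Of the regulators of ribosomal protein genes SFP1 rose by 0.61 and IFH1 fell by 0.47, while FHL1 and RAP1 did not pass (0.21 and -0.01, adjusted p = 0.0712 and 0.946). Of the GATA factors of nitrogen catabolite repression GAT1 rose by 0.81, and GLN3 did not pass (0.16, adjusted p = 0.139). On the side that acts in quiescence, the kinase RIM15 rose by 0.40, the kinase YAK1 by 0.96 and the transcription factor GIS1 by 1.49 (1.55 and 1.65 against 0.01, 0.08 and 0.27). MSN4 rose by 0.89 and MSN2, its partner, fell by 0.47. IGO2, which protects mRNAs on entry into quiescence, rose by 1.30, and the probe of IGO1 was not well above background on any of the 8 arrays.

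**Figure D4:**
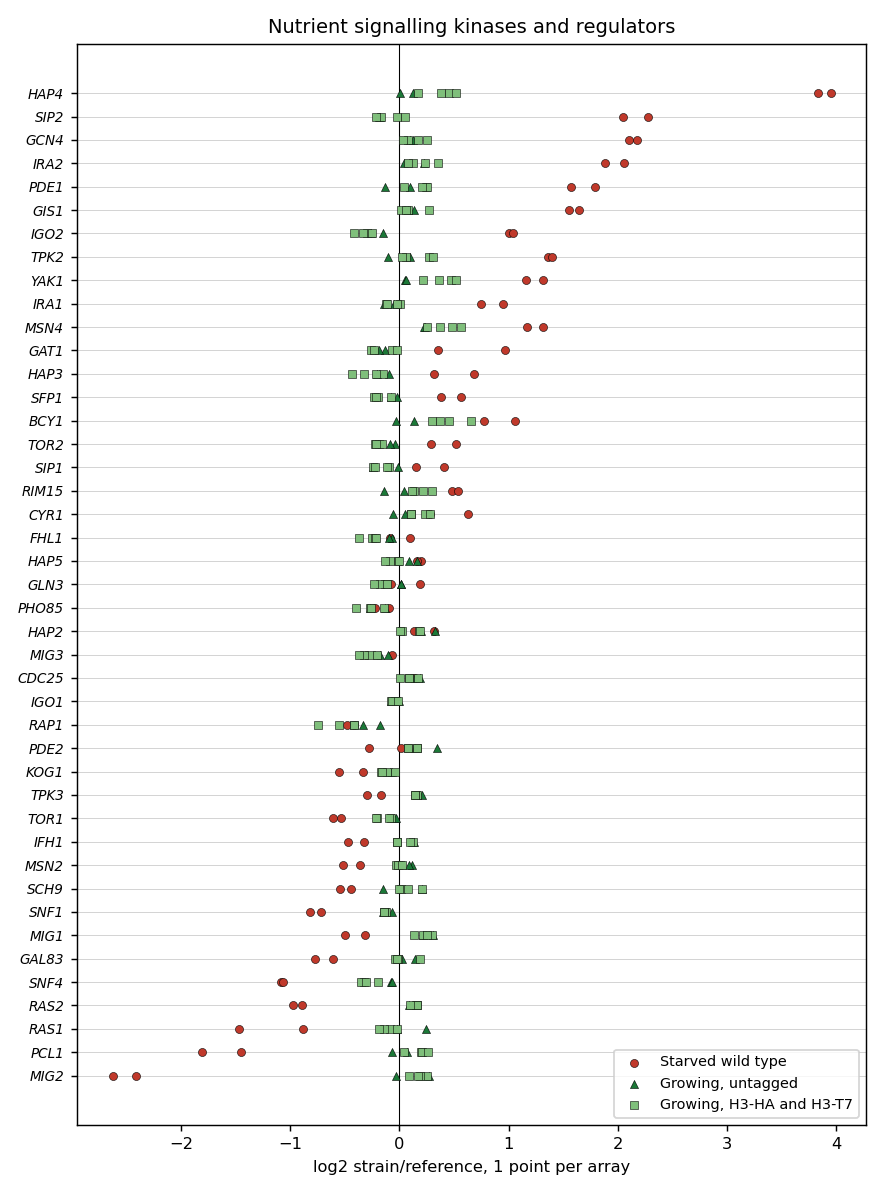
Log2 ratio to the reference (x axis) on each of the 8 arrays for 43 nutrient signalling kinases and regulators (y axis, ordered by change), with starved arrays as circles, the untagged growing strain as triangles and the tagged growing strains as squares. HAP4 stands apart at the top near 3.9 and MIG2 at the bottom near -2.5, and in the middle of the order starved and growing points overlap.

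Among the phosphate genes that were kept the largest rise was in SPL2, and PHO89 and PHO84, phosphate transporters with differences in ratio of 4.66 and 4.02, were set aside by the rule on the reference. SPL2, which regulates low-affinity phosphate uptake, was at 3.28 and 3.21 against -0.50, -0.41 and -0.22 (12.3-fold, adjusted p = 2.19e-07), and PHO81, the inhibitor of Pho85 in low phosphate, rose by 1.18 and PHM6 by 1.27, in a list of 18 with 10 higher and 4 lower. The acid phosphatase PHO12 fell by 1.67. Of 26 iron genes 17 were higher and 4 lower. FTR1 and FET3, the permease and oxidase of high-affinity iron uptake, were lower, FTR1 at -2.67 and -2.21 against -0.41, -0.33 and -0.09 and FET3 at -2.35 and -1.85 against -0.40, -0.26 and -0.09, whereas FIT2 and FIT3, wall proteins that hold iron siderophores, rose by 1.58 and 1.32. Both FIT genes were below the reference on the growing arrays, at -1.998, -1.599 and -1.38 and at -1.89, -1.34 and -1.06 (lowest, median and highest of each).

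Genes of glycerol and osmotic response were divided, with 7 higher, 6 lower and 7 not called of 20. GUT1 and GUT2, which break glycerol down, rose by 2.11 and 2.09, and GCY1 by 1.81. Also divided were those of polyamine, vitamin and thiamine synthesis, which include the biotin genes, with 6 higher, 9 lower and 5 not called of 20 in all. In both lists the shares were not far from the 38.4% higher and 36.8% lower of all probes.

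Single genes of mating and meiosis were higher in the haploid starved cells. IME1, the inducer of meiosis, was at 0.80 and 0.86 against -0.96, -0.50 and -0.30 (1.41, adjusted p = 3.83e-05), and RME1, its repressor, at 1.45 and 1.27 against -0.41, -0.29 and 0.02 (1.61). In the meiosis list 17 of 24 were higher (median change 0.59, and -0.03 when the arrays were scaled to an equal spread), and 4 passed the stricter rule (DIT1, IME1, DMC1 and REC8), 16.7% of the list, which is close to the 13.2% of all probes. Of 17 genes of the mating pathway 8 were higher, 1 was lower and 8 were not called (median change 0.55, and -0.18 with this scaling), a share not far from the 38.4% of all probes that were higher. Among those higher were STE18, the gamma subunit of the pheromone G protein, at 1.44, AGA1 at 1.34 (not called without either starved array) and FUS2 at 1.25. Of the genes specific to alpha cells MF(ALPHA)1 lay below the alpha reference in both groups, but less so in the starved strain, at -3.39 and -2.94 against -5.80, -5.06 and -4.61. SAG1, alpha-agglutinin, was at 0.21 and -0.85 against -3.37, -2.35 and -1.76, so that its starved arrays lay on either side of the reference, and it was not called without starved replicate a. Among genes specific to a cells, ASG7 rose by 1.16 (adjusted p = 0.0178, not called without either starved array), and STE2 and STE6 did not pass (0.12 and -0.30, adjusted p = 0.527 and 0.145).

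The growing strains differed among themselves in some of these lists. On the list of stationary-phase genes the 2 untagged arrays had medians of 0.07 and 0.22, the 4 arrays of the tagged strains 0.61 to 0.93, and the starved arrays 2.97 and 3.04. For trehalose genes the values were 0.01 and 0.30 untagged, 0.43 to 0.94 tagged, and 1.37 and 1.57 starved, and for heat shock genes 0.02 and 0.25, 0.32 to 0.71, and 0.95 and 0.81. For autophagy genes all growing arrays were within 0.02 to 0.16. Among single genes, HSP12, HSP42, CTT1, GSC2, SNZ1 and HXK1 were all lowest on an untagged array and highest on a tagged one. They were chosen after their values were seen, and COX7, for one, was lowest on an H3-HA array. The tagged mean was above the untagged mean for 82.0% of the 809 probes higher by the stricter rule and for 48.2% of all 6333 probes. With the untagged strain alone as the growing group, 965 probes were higher and 807 lower by the stricter rule.

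The growing strain with no tag and the tagged strains differ at HHT2, where the tagged strains carry a LoxP site and a tag left by an earlier recombination, and no test was made between them here.

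**Figure D5:**
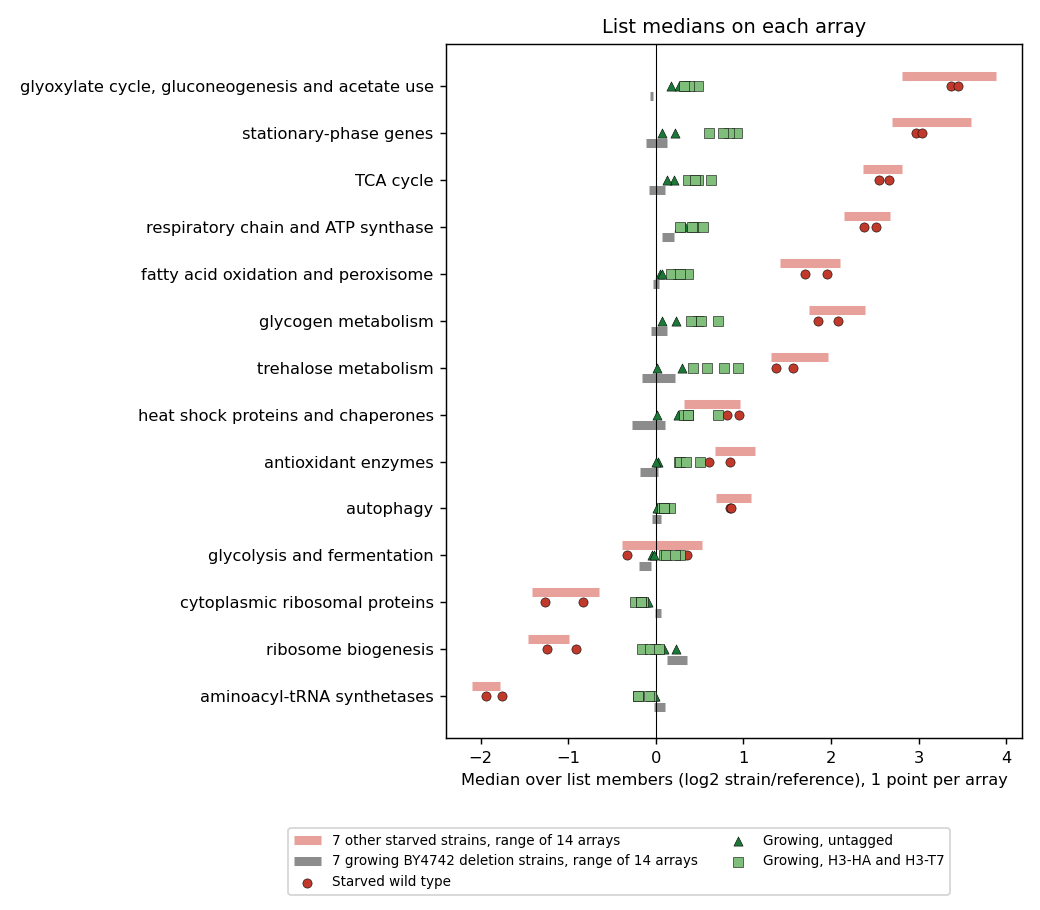
Median log2 ratio to the reference over the members of 14 gene lists (x axis) on each array, with starved arrays as circles, the untagged growing strain as triangles, the tagged growing strains as squares, and bars for the range over 14 arrays of 7 other starved strains (upper) and 14 arrays of 7 growing BY4742 deletion strains (lower). On the stationary-phase list the tagged arrays reach 0.93, between the untagged arrays and the starved arrays near 3.0, and on the autophagy list all growing arrays stay under 0.17.

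Several classic genes of the starved state were among the 45 probes set aside for their reference channel, and their ratios are given as a description only. Their median change was 3.74, 39 of them were higher in the starved strain, and the reference signal itself was higher on the starved arrays for 34. ICL1, the isocitrate lyase of the glyoxylate cycle, was at 3.74 and 4.10 on the starved and 0.29, 0.42 and 0.66 on the growing arrays, with a reference signal that differed by 1.29. PCK1, of gluconeogenesis, was at 4.35 and 4.64 against -0.03, 0.33 and 0.52 (reference difference 1.55), and HXT5, the hexose transporter of starved cells, at 4.89 and 5.24 against -0.11, 0.74 and 1.37 (reference difference 3.05). SPG4, SIP18 and HSP26 belong to this set too, with starved ratios of 4.92 and 5.22 for SPG4, 5.50 and 6.05 for SIP18 and 5.13 and 6.16 for HSP26. FBP1, of gluconeogenesis, and STE3, MFA1 and MFA2, marks of mating type, were also set aside, with differences in ratio of 3.67, 1.66, 0.62 and 0.42. Just inside the limit lay EBP2, CAT2 and RGI1 (-0.98, 0.98 and 0.96), and just outside SSF2 and AGA2 (-1.001 and 1.01). Whether the reference RNA or the labelling differed between the sets of arrays was not tested.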

How the data were processed

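Dual-channel oligonucleotide arrays were hybridised with 1 strain and a common wild-type reference RNA, with the strain in Cy3 on replicate a and in Cy5 on replicate b. The authors scanned 15552 spots per array, with 2 spots for each of 6388 yeast probes, and deposited the foreground and background intensity of each channel for every spot. They also deposited normalized log2 ratios (processed with limma 2.12.0, per the submitters' processing notes), which served as an alternative. A further deposited table holds the authors' own comparisons (mean values and p-values) and was not used. There were 0 columns of other samples.

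Background was removed from the intensities with normexp (offset 50). Each array then underwent loess, to which control spots contributed nothing. The mean of both spots gave the value of a probe, signed as strain over reference by its dyes (R 4.3.3, limma 3.58.1). The fit was limma's linear model with empirical Bayes on 8 arrays, with starved against growing and a dye effect, which is also the replicate letter. P-values were adjusted over all 6388 probes by Benjamini-Hochberg. Deviations of same-letter arrays from their group means correlated at 0.13 to 0.53 in all 6 pairs of strains, so the block was kept. Loess assumes equal numbers of rises and falls, and depth is expressed here by intensity over background, while the number of arrays limits the precision: the median SE was 0.075. On simulated data with this comparison's spread, 11, 27, 45 and 48 of 50 probes changed by 0.25, 0.5, 1 and 2 were called, with 4 false calls among 6188. In the simulation those 6188 of 6388 probes were unchanged and the noise was independent between probes, whereas 75.2% of probes were called in the real comparison. The share of changes found and of false calls in the real comparison was therefore not measured. Names came from the RefSeq table for 5324 of 5326 probes with 1 symbol, and 1062 probes had none. Of a gene's several probes 1 was used.

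Genes were named by a rule: the 12 largest rises and falls past the stricter rule, the 4 called members of each list with the largest changes, all members of lists of up to 10, all nutrient regulators, the genes of the turnover study and NuB4, and the marker genes. Members named as exceptions to their list's direction, and genes marked so, were chosen after their values were seen. The rule, the 44 gene lists and the groups compared were chosen with earlier results of these data known. Alternatives covered background correction, normalization, the authors' ratios, scaling, dim probes, dye block, model, growing strains, the limit on the reference channel and leaving out each array.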

Additional observations from a re-analysis of the deposited data

Results flagged for a closer look

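Among 277 genes named above and the medians of 44 lists, 8 genes and 1 list had a growing array set apart from the other 5 by more than Dixon's 95% limit, and chance alone flags about 1 group in 20. ATG8 was at 0.27 on replicate b of the H3-HA strain, with the nearest array at 0.09. RPS30B was at -0.69, SIC1 at -0.26 and the median of glycerol and osmotic genes at 0.11 on the same array. NOP1 was at 0.20, SNF1 at -0.064 and SSB2 at 0.063 on replicate b of the untagged strain. PDE2 was at 0.34 and TPK3 at 0.20 on replicate a of the untagged strain.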

How the results depend on the processing

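All 4 counts of probes (higher, lower, and both by the stricter rule) stayed within 1.5 times their value under every alternative run except scaling the arrays to an equal spread, and the median of all probes moved by at most 0.061 from 0. Leaving out each array gave 1988 to 2421 probes higher, 2001 to 2357 lower, and by the stricter rule 744 to 833 higher and 595 to 806 lower, and without a starved array the lone one is assumed to vary like the growing ones. Without the replicate block (no dye effect) the counts were 2360 and 2307, and 811 and 703 by the stricter rule, and of the named genes ADH1 and HIF1 were no longer called.

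Scaling gave 1191 higher and 1296 lower probes, and 96 and 183 by the stricter rule, and by its construction it widens the ratios of the growing arrays against those of the starved arrays. With it the medians of trehalose (-0.204), heat shock (-0.172), a-specific (-3.002), mating (-0.182) and meiosis genes (-0.025) turned negative. It also turned ADR1 (-0.031), AGA1 (-1.47), ASG7 (-1.54), ATG27 (0.030), BCY1 (-0.013), CSE4 (-0.327), CTT1 (-0.069), DMC1 (-0.032), DSE4 (0.028), GLK1 (-0.153), HSP12 (-2.24), HSP42 (-0.101), HTA1 (-0.541), HTB1 (-0.529), HXK1 (-0.404), MF(ALPHA)2 (4.57), MRP8 (-0.070), NTH1 (-0.365), RAP1 (0.394), RPB4 (-0.085), SEM1 (-0.0071), SNZ1 (-0.516), STE2 (-4.62), TPS1 (-0.204) and TSL1 (-0.172), and ended the call of 57 other named genes (ADH1, AMS1, ARO9, BRF1, CAT2, CYR1, DAL80, DIT1, DSE2, EAF3, FUS2, GCY1, GLC3, GSC2, GUT2, HHF2, HHO1, HIF1, HSP104, HSP78, KOG1, MDH1, MEP3, MRPL3, MSN2, MSN4, NTH2, OM45, PDE2, PGM2, PIR3, PRB1, PRE8, RAS1, RIM15, RPB11, RPB3, RPB5, RPB8, RPO21, RPO26, RRP8, SAG1, SCH9, SIP4, SNF1, SNF4, SPA2, SPI1, SSA3, SSE2, SUI1, SUN4, TOR1, UPC2, VPS72 and YAK1).

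With print-tip loess the a-specific median was -0.318, HTA1 -0.162 and RPL41A -0.463. With median centring the a-specific median was -0.128, HTA1 -0.461, HTB1 -0.608, RPL41A -0.040, RPS30B -0.584 and SUI1 -0.0078. In the authors' ratios the medians of H2A and H2B genes (0.062), the turnover loci (0.092) and a-specific genes (-0.167) turned, as did ADH1 (0.296), ANT1 (0.0030), HTA2 (0.054), HTB2 (0.444), RPL41A (-0.609) and TFC1 (-0.011). The cause of these differences was not tested.

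Without starved replicate a, 20 named genes were no longer called (ADH1, AGA1, APE3, ASG7, BCY1, FUS2, GLK1, HIF1, HSP12, HXK1, NTH1, PDE2, RPS30B, SAG1, SNZ1, SSA1, TFC6, TPS1, TSL1 and UPC2), and the a-specific median was -0.221, and it was 0.460 without replicate b. Without starved replicate b, 19 were not (AGA1, ANT1, APE3, ASG7, BCY1, CYR1, DSE2, HSP12, HTA1, HXK1, NTH1, RIM15, RPB11, RPS30B, SNZ1, TPS1, TSL1, UPC2 and YGP1). Leaving out single growing arrays ended the calls of ADH1, CYR1, HIF1, PDE2, TSL1, UPC2 and YGP1 only, among the named genes. With 2 starved arrays, a change has to be well above its SE to be called. TPS2, for one, was not called at 0.51 with an SE of 0.27.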

Other observations

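The 4 control probes of another set that were bright enough to measure, whose identity the files do not give, lay 0.25 to 1.06 above the median of the yeast probes on the starved arrays and 1.602 to 2.09 above it on the growing arrays (log2 strain over reference). They were given no weight in the normalization.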
